A study of Mus musculus with 18 samples.

Results

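Expression and splicing were described for 10 genes of SR proteins and their relatives, Srsf1, Srsf2, Srsf3, Srsf4, Srsf5, Srsf6, Srsf7, Srsf11, Tra2a, and Tra2b. They were taken as a list of gene symbols, and all 10 were present in both expression tables, among 9435 genes in the knockdown dataset and 9472 in the overexpression dataset. The splicing table assigned 333 of its 661941 events to these genes. Of them, 281 were covered in all 12 knockdown libraries and 289 in all 6 overexpression libraries, where covered means a read coverage score of VLOW or better in the table.

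SR proteins bind exonic sequences through RNA recognition motifs and recruit the splicing machinery through a domain rich in arginine and serine. Most of their genes carry an ultraconserved poison exon or a retained intron whose inclusion places a stop codon ahead of a later exon junction, and such transcripts are substrates of nonsense-mediated decay (NMD) or stay in the nucleus. SR proteins are known to promote inclusion of their own poison exons, a feedback that keeps their levels within limits, and SR protein levels are known to be high in dividing and pluripotent cells.

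The cells were primary mouse embryonic fibroblasts (MEFs) of the genotype Collagen-OKSM, M2rtta+, in which doxycycline switches on OCT4, SOX2, KLF4, and MYC. In the knockdown dataset, non-infected cells at day 0 (NI) were compared with cells at day 12 of induction that carried a lentivirus with a scrambled shRNA (shSCR), an shRNA against Cpsf3 (shCPSF3#1 or shCPSF3#2), or an shRNA against Hnrnpul1 (shUL1#1 or shUL1#2). In the overexpression dataset, a separate set of NI cells at day 0 was compared with cells at day 12 that carried a retrovirus, either empty (Empty) or encoding T7-TIA1. Every group held 2 libraries, and nothing in the labels says whether these came from separate cultures or embryos, so the p-values measure the spread between these libraries, which may be technical. Infected cells were sorted for GFP at day 2, plated on irradiated feeder MEFs, and harvested with trypsin. Time, infection, sorting, medium, and feeder cells therefore cannot be told apart in any comparison of day 12 with day 0. The day was taken from the titles, since another label field gives day 0 for shUL1#2 and day 12 for the NI cells of the overexpression dataset.

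Expression is given as scaled CPM, in which the reads of a gene are divided by a per-library scaled size. Cpsf3 lay between 86.7 and 117.9 in shSCR and between 38.6 and 77.1 in the 4 libraries with an shRNA against it. Hnrnpul1 lay between 156.4 and 185.2 in shSCR and between 38.7 and 85.8 in the 4 shUL1 libraries. Tia1 lay between 77.0 and 85.6 in Empty and between 469.2 and 612.8 in T7-TIA1. The summed level of 8 genes of dividing cells, all 8 listed, was 2187 to 2439 scaled CPM in NI of the knockdown dataset, 1089 to 2142 in shSCR, and 304.1 to 1914 with the shRNAs against Cpsf3 or Hnrnpul1. In the overexpression dataset it was 1419 to 2110 in NI, 1997 to 2265 in Empty, and 1935 to 1995 in T7-TIA1. The 9 listed of 10 fibroblast genes summed to 16167 to 19685 in NI, 11090 to 13256 in shSCR, and 20410 to 36475 in the 4 knockdown groups, and to 16827 and 47702 in the NI libraries of the overexpression dataset, 9616 to 11954 in Empty, and 7884 to 8996 in T7-TIA1. The white blood cell genes Cd68 and Lyz2 summed to 7.34 to 8.74 in NI, 161.6 to 279.1 in shSCR, 1288 to 1736 in shCPSF3#1, 409.7 to 1243 in shCPSF3#2, 247.1 to 507.4 in shUL1#1, and 552 to 965.7 in shUL1#2, whereas Ptprc was not in the table. Among 6 epithelial genes, the knockdown table listed Krt8 and Krt18, which summed to 16.0 to 20.4 in NI, 297.7 to 538.9 in shSCR, and 31.7 to 221 in the knockdown groups. None of the 10 pluripotency genes and none of the 3 endothelial genes was in either table. These are bulk samples, in which fewer cells of a type and less RNA per cell cannot be told apart.

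Of the covered events of the members, 27 were exons or introns whose inclusion puts an in-frame stop codon more than 50 nt before the last exon junction of an annotated coding transcript (GENCODE M21, mm10). These nonsense-introducing events were 11 cassette exons and 16 introns. The introns are 16 of the 22 covered introns whose frame could be read from annotated transcripts, and the other 38 covered introns were not classified. The well-known poison exons of Tra2b (276 nt) and Srsf3 (456 nt) have no covered cassette event in the table, and after the values had been seen, they were added from the junction reads that the table gives for neighbouring events. The stop lay inside the exon for 10 of these 13 exons, and 5 of the 13 had a length that is a multiple of 3. Inside the introns, it was found in 15 of 16. The exons ended the frame with TGA in 8 cases, TAG in 3, and TAA in 2. The exons of Srsf4, Srsf6, Srsf7, Srsf11, and Tra2a each lie in an intron that is also listed as an event, so that the exon and the intron share junction reads and are not independent measures.

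The following stop codons, each in capitals with 12 nt on either side as read in the spliced transcript 5′ to 3′, are shown as examples of poison exons and retained introns whose values are given below.
Tra2a, stop created by the 79 nt exon at chr6:49253030-49253108 (minus strand): gtcaggatctcgTAGtccatcacgggt
Tra2b, 276 nt exon at chr16:22258986-22259261 (minus strand): ctcaggaataagTGAagctgaaatttg
Srsf3, 456 nt exon at chr17:29039454-29039909 (plus strand): ctcaccaccctcTGAatctgcattagc
Srsf4, 137 nt exon at chr4:131885356-131885492 (plus strand): cagctctgccacTGAgtgagcacgggt
Srsf6, 165 nt exon at chr2:162932815-162932979 (plus strand): gccttttgccatTAGacgcagggtgat
Srsf7, 107 nt exon at chr17:80204975-80205081 (minus strand): agtcagtcgcctTGAttcagaatgtca
Srsf11, 117 nt exon at chr3:158023243-158023359 (minus strand): gcttttgaaagtTGAgagcacacccct
Srsf1, 196 nt intron at chr11:88049216-88049411 (plus strand): atacagttttctTAAcagtggaatttg
Srsf5, 1229 nt intron at chr12:80947866-80949094 (plus strand): tggcaggtttgtTGAaatacagttttg
The 79 nt exon of Tra2a holds no stop of its own in frame. It shifts the frame, and the TAG stands in the next exon, at chr6:49252439-49252441, 725 nt before the last junction. For the other sequences, the stop begins between 7 nt (Srsf5) and 150 nt (Srsf6) from the 5′ end of the exon or intron. The annotation holds transcripts of the NMD class that contain the Srsf3 exon, the Tra2b exon, or the 117 nt exon of Srsf11.

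The expression of the members at day 12 with the scrambled shRNA was compared with day 0. Tra2a and Srsf5 were higher in both shSCR libraries than in both NI libraries. These were the 2 members of 10 called at an adjusted p under 0.05, beside 44.5% of all listed genes called in either direction and 22.5% called higher. For Tra2a, which encodes transformer-2 alpha, a binder of GA-rich exonic enhancers, the levels were 191.1 and 181.3 scaled CPM in NI and 265.6 and 285.5 in shSCR, a log2 fold change of 0.56 ± 0.14 (SE, n = 2 per group, adjusted p = 0.0126 with limma). Srsf5, known as SRp40, had 428.1 and 409.0 in NI and 693.6 and 658.5 in shSCR (0.69 ± 0.11, adjusted p = 0.00149). The call on Tra2a was lost in 3 of 12 fits that left out 1 library (NI replicate 1, NI replicate 2, or shSCR replicate 2), with a log2 fold change between 0.51 and 0.61 in all 12 fits and an adjusted p of up to 0.0748.

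The other 8 members were not called at day 12 with shSCR. Srsf3, the smallest of the classical SR proteins, had 541.3 and 501.6 scaled CPM in NI and 297.8 and 467.2 in shSCR, a log2 fold change of −0.48 ± 0.37 (adjusted p = 0.322). Srsf2, also known as SC35, had 229.0 and 227.4 in NI and 132.0 and 197.0 in shSCR (−0.50 ± 0.40, adjusted p = 0.343). Both shSCR libraries of each gene were below both NI libraries, but replicate 1 of shSCR was far below replicate 2. The same held for Srsf1, the founding SR protein (438.4 and 470.3 in NI, 279.5 and 433.2 in shSCR), for Srsf6 (391.8 and 363.2 in NI, 254.3 and 324.2 in shSCR), and for Tra2b (214.7 and 226.2 in NI, 149.2 and 207.5 in shSCR). In Srsf4, the levels were 20.8 and 20.0 in NI and 15.6 and 18.1 in shSCR. Srsf7, which carries a zinc knuckle, had 267.1 and 243.7 in NI and 184.6 and 298.7 in shSCR, and its groups overlapped. Srsf11, or p54, had 320.0 and 294.3 in NI and 325.5 and 321.5 in shSCR. The median log2 fold change was −0.29 over the 10 members and 0.00 over all genes. Scaling each library to the same sum moved the median of all genes up by 0.13, so that Srsf7 turned from −0.12 to 0.02. Srsf7 was also higher, at 0.23, in the fit without shSCR replicate 1.

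Among the day 12 groups of the knockdown dataset, replicate 2 exceeded replicate 1 in 5 of 5 groups for Srsf1, Srsf2, Srsf3, Srsf4, Srsf6, Srsf7, and Tra2b, by 1.11 to 2.01 times. For Srsf5 the ratio lay between 0.949 and 1.07, for Srsf11 between 0.988 and 1.19, and for Tra2a between 0.976 and 1.27. The summed level of the genes of dividing cells was also higher in replicate 2 in 5 of 5 groups, and their part in the levels of the members was not tested.

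**Figure D1:**
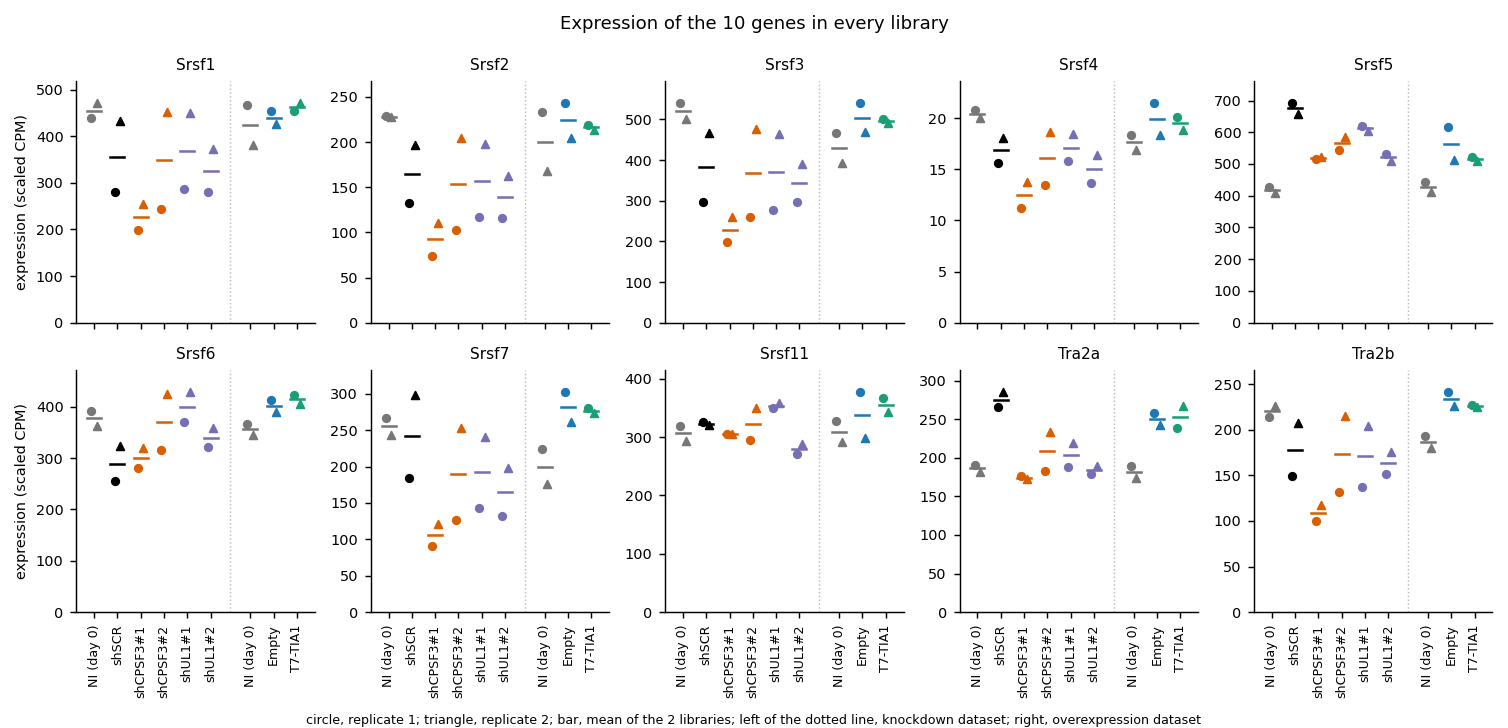
Level of each of the 10 genes in scaled CPM (y axis, from 0) in the 9 groups (x axis), with a circle for replicate 1, a triangle for replicate 2, and a bar for their mean. Tra2a and Srsf5 were higher in both shSCR libraries than in NI, and for Srsf1, Srsf2, Srsf3, Srsf7, and Tra2b the replicates of a day 12 knockdown group stood apart by up to 2.01 times.

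Inclusion was compared between day 12 with shSCR and day 0. Of 27 nonsense-introducing events tested, 9 rose, none fell, and 18 were not called. In a fit of the NI and shSCR libraries alone, 0 member events were called, and 0 of all 374159 events. The 9 were 3 of 11 exons (Tra2a, Srsf6, and the 117 nt exon of Srsf11) and 6 of 16 introns, in Srsf1 (2), Srsf5, Srsf6, Srsf11, and Tra2a. In the whole table, 3.65% of exons and 3.42% of introns rose. Of the 27 events, 26 had a mean of at least 5 reads for each form, as had 64109 of all 374159 covered events. In a fit of such events alone, 12.6% of all exons and 9.98% of all introns rose. The median difference in percent spliced in (PSI, the percentage of transcripts that include the exon or intron) was 4.8 percentage points over the 27 events and 0 over all covered events. By a rule without a test (a difference of at least 10 between mean PSI and a gap of at least 5 between any libraries of the groups compared), 9 of the 27 were also higher and none lower, beside 0.878% of all exons and 1.01% of all introns that were higher. Of the 9 called events, 5 were called in every one of the 12 fits that left out 1 library.

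The largest rise among exons was that of Tra2a. The 79 nt exon had a PSI of 12.1 and 11.3 in NI and of 41.6 and 31.7 in shSCR. The odds of inclusion rose by 2.11 ± 0.20 (SE) on the log2 scale (adjusted p = 0.00629), and both shSCR libraries were far above both NI libraries. The 11322 nt intron around this exon rose as well, from 9.45 and 7.44 to 29.0 and 27.1 (2.07 ± 0.22, adjusted p = 0.00751). In this comparison, the total level of Tra2a and the inclusion of both events were higher in both shSCR libraries than in both NI libraries, although the shSCR library with the higher level had the lower PSI.

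Srsf6, or SRp55, had both its 165 nt exon and the intron around it among the called events. The exon had a PSI of 4.10 and 4.13 in NI and of 17.2 and 14.3 in shSCR (log2 odds 2.10 ± 0.16, adjusted p = 0.00433). The 1283 nt intron rose from 12.5 and 11.2 to 32.0 and 29.2 (1.71 ± 0.13, adjusted p = 0.00433). In both, the replicates of a group lay close together relative to the difference.

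In Srsf1, retention rose for a pair of neighbouring introns. The 196 nt intron had a PSI of 6.47 and 5.97 in NI and of 41.8 and 30.3 in shSCR (3.07 ± 0.23, adjusted p = 0.00411), the largest PSI difference of the 27 events. The 368 nt intron upstream of it had 7.44 and 8.15 in NI and 32.6 and 23.6 in shSCR (2.19 ± 0.34, adjusted p = 0.0184). The 187 nt exon that starts at the base after the 196 nt intron went the other way, from 96.4 and 98.2 to 66.7 and 73.5 (−3.97 ± 0.40, adjusted p = 0.0067). This exon leaves the frame open whether it is included or skipped. The call on the 368 nt intron was lost without NI replicate 1, NI replicate 2, or shSCR replicate 1 (log2 odds of 1.86 to 2.51 over all 12 fits).

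Srsf11 has a group of nonsense-introducing exons inside a single long intron. The 117 nt exon rose from 15.7 and 13.9 in NI to 38.1 and 27.4 in shSCR (1.47 ± 0.31, adjusted p = 0.0412), a call that was lost in 8 of 12 fits without 1 library, the fits that left out any NI, shSCR, shCPSF3#1, or shUL1#2 library (1.12 to 1.82). The 3774 nt intron rose from 25.8 and 24.5 to 50.7 and 41.3 (1.34 ± 0.22, adjusted p = 0.0232) and was not called without NI replicate 1, NI replicate 2, or shSCR replicate 1 (1.06 to 1.61). For the 100 nt exon, PSI was 10.3 and 10.2 in NI and 24.9 and 13.8 in shSCR, and for the 64 nt exon it was 4.55 and 4.33 and then 6.82 and 4.21, with no call for either (adjusted p = 0.261 and 0.597).

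Srsf5 was the remaining gene with a call. Its 1229 nt intron had a PSI of 10.2 and 8.90 in NI and of 24.6 and 19.9 in shSCR (1.43 ± 0.19, adjusted p = 0.0126), which was lost without NI replicate 1, NI replicate 2, or shSCR replicate 1 (1.24 to 1.63). The other nonsense-introducing introns of Srsf5 stayed at a PSI of 0.84 to 3.57 (590 nt) and 0.19 to 1.90 (201 nt) in all 18 libraries.

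Srsf7, Srsf4, Srsf3, and Srsf2 had no called nonsense-introducing event in this comparison. The 874 nt intron of Srsf7 had a PSI of 21.1 and 17.1 in NI and of 33.9 and 26.0 in shSCR, just outside the threshold (0.85 ± 0.20, adjusted p = 0.0527). Its 1377 nt intron had 46.0 and 31.8 in NI and 49.5 and 38.6 in shSCR, and the groups overlapped (adjusted p = 0.56). The 107 nt exon inside the 874 nt intron had 10.6 and 7.76 in NI and 16.1 and 9.91 in shSCR, and the groups overlapped. In Srsf3, the 393 nt intron had 4.68 and 3.2 in NI and 9.84 and 6.31 in shSCR (1.09 ± 0.26, adjusted p = 0.0556), and the 2150 nt intron that holds the poison exon had 7.19 and 5.28 and then 17.6 and 8.53 (adjusted p = 0.144). The 207 nt and 137 nt exons of Srsf4 had 11.2 and 11.4 and then 16.8 and 15.4, and 19.6 and 21.1 and then 21.3 and 21.7 (adjusted p = 0.38 and 0.909). Srsf2 has an exon of 106 nt downstream of its normal stop, which turns that stop into a premature one where its 3′ end is spliced on as well. This exon was at a PSI of 99.9 to 100 in every library. That value does not give the share of transcripts with a premature stop, since transcripts that end in this sequence would share its upstream junction.

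**Figure D2:**
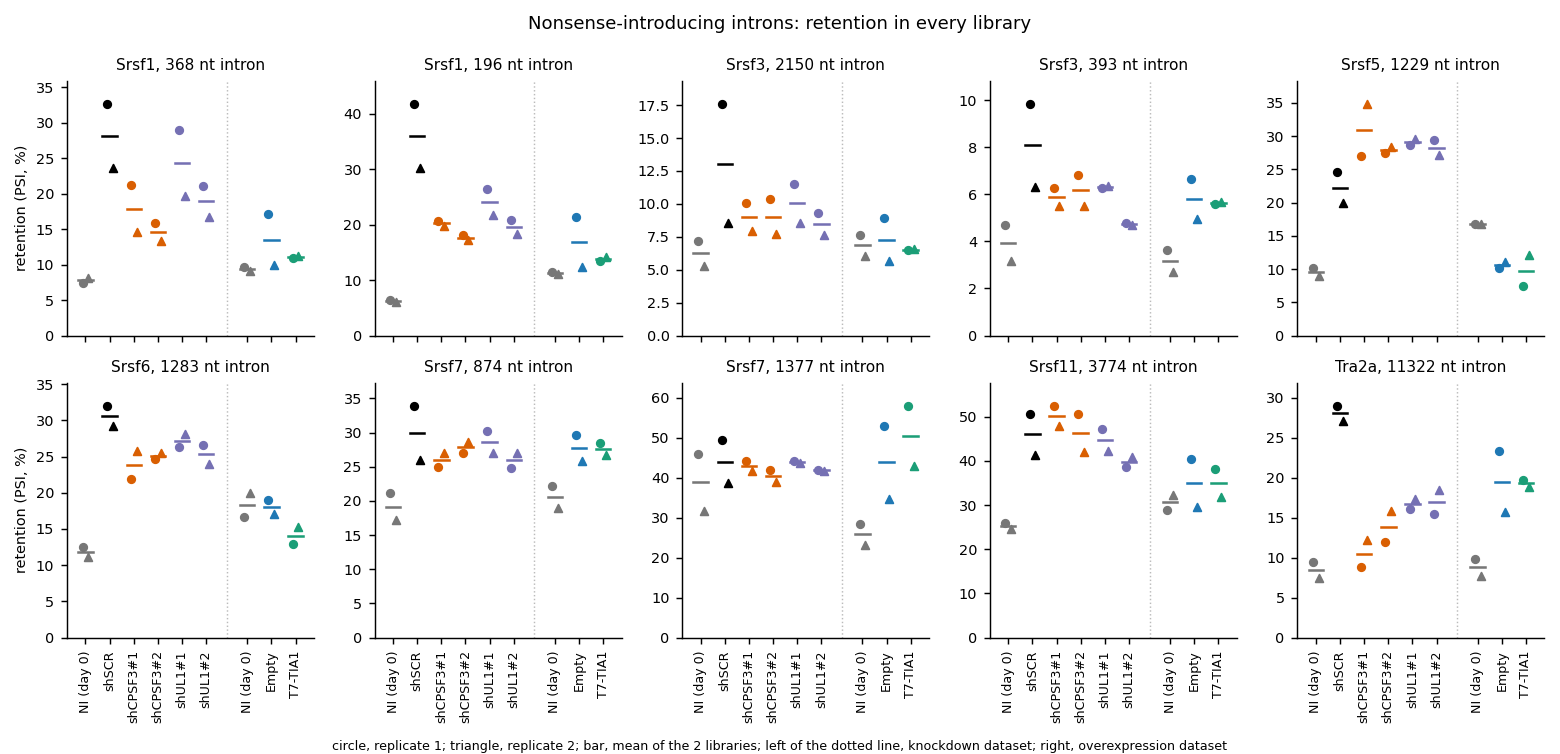
Retention (PSI in percent, y axis, from 0) of the 10 nonsense-introducing introns with a mean PSI of at least 5 in some group, in the 9 groups (x axis), with a circle for replicate 1, a triangle for replicate 2, and a bar for the mean. Both shSCR libraries were above both NI libraries for all introns shown except the 1377 nt intron of Srsf7. This held for 9 of all 16 nonsense-introducing introns, beside 28.7% of all covered introns.

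The poison exons of Tra2b and Srsf3 were followed by the share of junction reads that join the exon rather than skip it, with no test. For Tra2b, this rests on the junction downstream of the exon alone. The share for Tra2b was 16.6% in both NI libraries and 27.2% and 20.0% in shSCR, and in the overexpression dataset 12.1% and 16.3% in NI and 30.0% and 19.1% in Empty. For Srsf3, it was 5.77% and 5.18% in NI, 16.3% and 8.7% in shSCR, 6.05% and 7.88% in NI of the overexpression dataset, and 10.3% and 7.14% in Empty. The day 12 controls were above day 0 for Tra2b in both datasets and for Srsf3 in the knockdown dataset, while Empty overlapped with NI for Srsf3. The Tra2b share with the shRNAs against Cpsf3 was 21.8% and 13.6% (shCPSF3#1) and 22.8% and 17% (shCPSF3#2), which overlapped with shSCR, and with those against Hnrnpul1 it was 22.1% and 18.9% (shUL1#1) and 27.0% and 20.5% (shUL1#2). For Srsf3, the knockdown groups lay between 8.32% and 17.4%, around the range of shSCR. T7-TIA1 had 27.3% and 18.8% for Tra2b and 8.81% and 7.34% for Srsf3, within or next to the range of Empty.

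**Figure D3:**
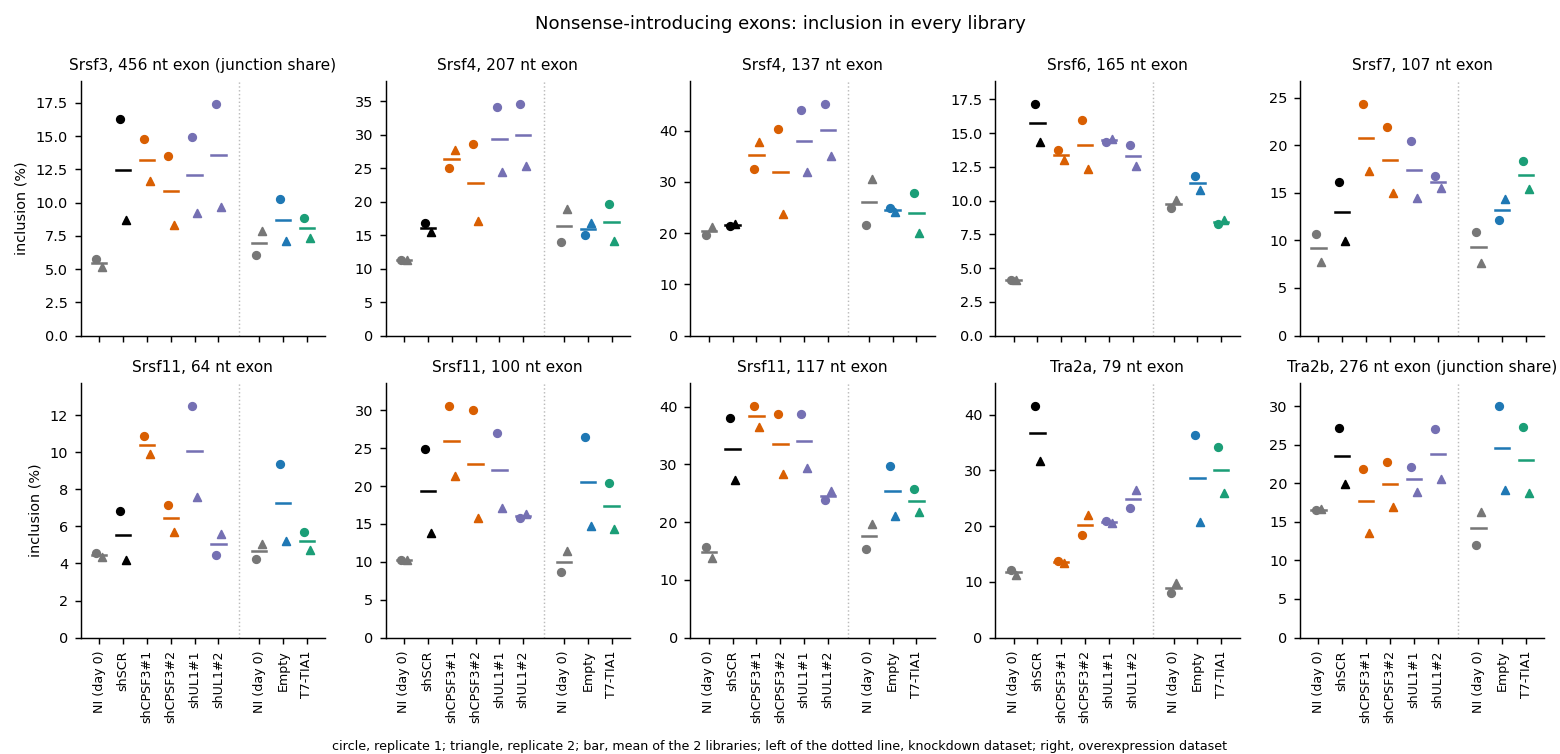
Inclusion (in percent, y axis, from 0) of 8 nonsense-introducing cassette exons, as PSI, and of the Srsf3 and Tra2b poison exons, as the share of junction reads, in the 9 groups (x axis), with a circle for replicate 1, a triangle for replicate 2, and a bar for the mean. The 79 nt exon of Tra2a had a PSI of 31.7 and 41.6 in shSCR and of at most 26.5 in every knockdown library.

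Other events of the members moved at day 12 with shSCR. In all, 29 of 281 were called, 23 higher and 6 lower, beside 4.63% of all events, and 17 passed the PSI rule, beside 1.22%. Of the 29 calls, 10 had a PSI within 1 point of 0 or 100 in all NI and shSCR libraries, and the forms of an alternative splice site were counted separately although they share reads. The largest difference was at the 5′ splice site of the first exon of Srsf5. The longer form of this exon (197 nt at chr12:80945602-80945798, 130 nt longer than the 67 nt form) had a PSI of 26.9 and 24.6 in NI and of 66.8 and 59.8 in shSCR (2.32 ± 0.14, adjusted p = 0.00269). Retention of the 907 nt intron that follows the 67 nt form rose from 27.1 and 26.3 to 54.9 and 48.4 (1.55 ± 0.14, adjusted p = 0.00586). Neither adds a stop codon to the frame. In Srsf2, the 1059 nt intron that follows the normal stop had a PSI of 7.72 and 7.78 in NI and of 21.9 and 15.4 in shSCR (1.43 ± 0.20, adjusted p = 0.0152), and was not called without NI replicate 1 or NI replicate 2 (1.12 to 1.74). The longer form of the Tra2b poison exon (397 nt) had 5.15 and 5.26 in NI and 14.9 and 22.8 in shSCR, past the PSI rule but not called (adjusted p = 0.0553). A 65 nt exon of Tra2b, which was not covered in all libraries and could not be placed in a coding transcript, had 45.8 and 41.2 in NI and 21.8 and 15.7 in shSCR, past the PSI rule and with no test. Smaller differences were called at splice sites of Tra2a and Srsf11. The 129 nt form of a Tra2a exon fell from 14.2 and 14.1 to 9.69 and 8.73 (−0.71 ± 0.14, adjusted p = 0.0363), a call lost in 6 of 12 fits without 1 library. The 117 nt form of an Srsf11 exon at chr3:158012780-158012896, which is not the nonsense-introducing exon of that length, rose from 8.08 and 7.03 to 13.2 and 11.7 (0.80 ± 0.15, adjusted p = 0.0291), a call lost in 4 of 12. Calls were also made on a 5′ splice site of Srsf1 with a PSI of at most 0.67 and on a 128 nt exon of Srsf11 with at least 99.9 in every library. Among the called events with small values were introns of Tra2a, Srsf3, and Srsf7 that stayed under a PSI of 7 in every library.

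**Figure D4:**
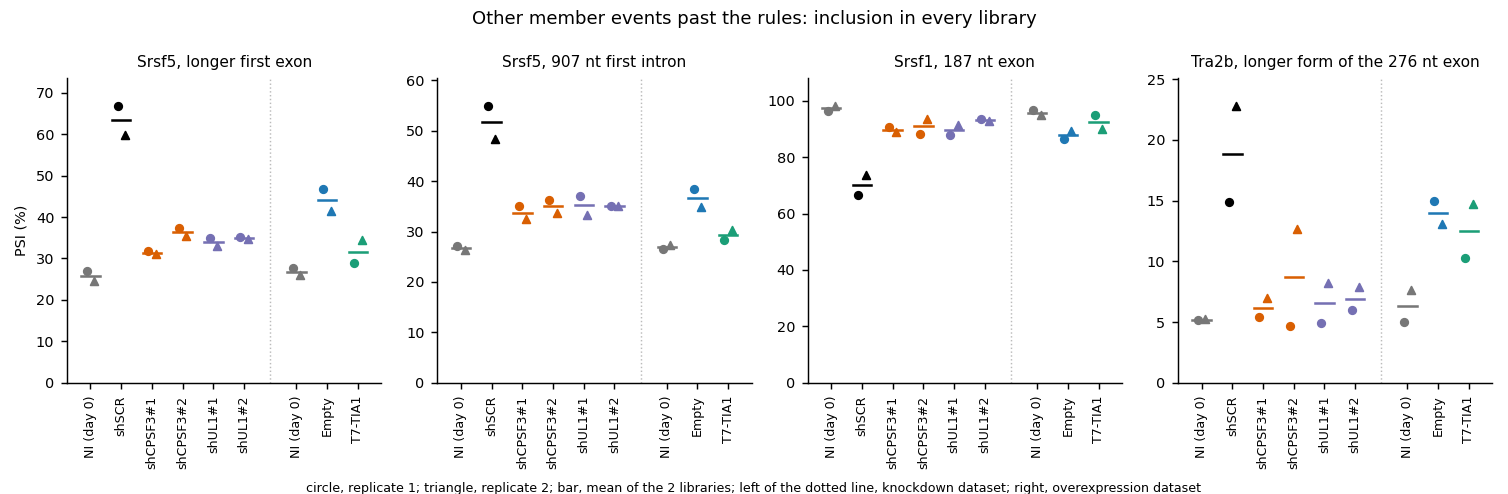
PSI in percent (y axis, from 0) of 4 other events in the 9 groups (x axis), with a circle for replicate 1, a triangle for replicate 2, and a bar for the mean. The longer first exon of Srsf5 had a PSI of 59.8 and 66.8 in shSCR and of at most 37.4 in every knockdown library.

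Knockdown of CPSF3, the endonuclease of mRNA 3′ end processing, was compared with shSCR at day 12, with the mean of both shRNAs. Tra2a and Srsf5 were lower than with shSCR and were the 2 members called, beside 26.1% of all genes called in either direction and 9.35% called lower. Tra2a had 176.4 and 172.2 scaled CPM with shCPSF3#1 and 183.2 and 233.6 with shCPSF3#2, a log2 fold change of −0.53 ± 0.12 (adjusted p = 0.0166), and the call was lost without shSCR replicate 2 (adjusted p = 0.12). Srsf5 had 515.5 and 522.4, and 545.4 and 585.8 (−0.32 ± 0.09, adjusted p = 0.0395), and was called in a single fit of the 12 without 1 library, that without shCPSF3#2 replicate 2 (−0.36 to −0.28). For both genes every CPSF3 knockdown library was below both shSCR libraries.

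The other members were not called with the CPSF3 knockdown in the fit without a replicate block. With the block, Srsf7 (adjusted p = 0.0154), Srsf2 (adjusted p = 0.0498), and Tra2b (adjusted p = 0.0495) were called lower as well. In all, 5 members were then called, beside 4698 of all 9435 genes, 2133 of them lower. Srsf7 had 91.2 and 121.2 with shCPSF3#1 and 126.0 and 253.0 with shCPSF3#2 (−0.77 ± 0.35, adjusted p = 0.132), and Srsf2 had 73.8 and 110.9, and 102.5 and 205.0 (−0.49 ± 0.35, adjusted p = 0.305). Srsf3 had 197.7 and 259.1, and 258.7 and 476.2 (−0.40 ± 0.32, adjusted p = 0.358). In these genes, shCPSF3#2 replicate 2 was above the lower shSCR library, so the groups overlapped, while both shCPSF3#1 libraries were below both shSCR libraries. Srsf6 had 281.4 and 319.2, and 314.9 and 424.0 (0.20 ± 0.16), and Srsf11 had 306.0 in both libraries of shCPSF3#1 and 294.4 and 349.9 with shCPSF3#2 (−0.05 ± 0.10). Srsf11 turned to 0.02 without shCPSF3#2 replicate 1. The levels of Srsf1 (199.7 to 452.5), Srsf4 (11.3 to 18.7), and Tra2b (99.7 to 215.6) also overlapped with shSCR. The median was −0.36 over the members and 0.03 over all genes. The sums for dividing cells were lower than in shSCR in shCPSF3#1 (304.1 and 652.8) and overlapped with it in shCPSF3#2 (697.7 and 1914), and their part was not tested.

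With the CPSF3 knockdown, 3 of the 27 nonsense-introducing events fell and none rose, and 8 of 281 member events were called (2 higher, 6 lower), beside 0.578% of all events. In the whole table, 0.37% of exons and 0.531% of introns fell. The 79 nt exon of Tra2a had a PSI of 13.8 and 13.3 with shCPSF3#1 and of 18.4 and 22.0 with shCPSF3#2, each below both shSCR libraries (−1.53 ± 0.17, adjusted p = 0.0234). The call was lost in 5 fits, those without shCPSF3#1 replicate 1 or 2, shCPSF3#2 replicate 1, or shUL1#1 replicate 1 or 2 (−1.84 to −1.22). The intron around it had 8.87 and 12.1, and 11.9 and 15.8 (−1.5 ± 0.19, adjusted p = 0.0309), and the 196 nt intron of Srsf1 had 20.7 and 19.8, and 18.1 and 17.1 (−1.26 ± 0.19, adjusted p = 0.0455). The Tra2a intron was called in none of the 12 fits without 1 library (−1.63 to −1.38), and the Srsf1 intron only in that without shSCR replicate 2 (−1.62 to −0.90). These 3 events are among the 9 that rose with shSCR, and both comparisons share the shSCR libraries.

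The other 6 nonsense-introducing events that rose with shSCR were not called with the CPSF3 knockdown, and they lay on either side of shSCR. The 368 nt intron of Srsf1 had a PSI of 21.2 and 14.6, and 15.9 and 13.3, all below shSCR (adjusted p = 0.142), and the 1283 nt intron of Srsf6 had 21.9 and 25.7, and 24.6 and 25.4, also all below (adjusted p = 0.121). The 165 nt exon of Srsf6 had 13.8 and 13.0, and 15.9 and 12.4, which overlapped with shSCR (adjusted p = 0.412). In Srsf11, the 117 nt exon had 40.1 and 36.5, and 38.7 and 28.4 (adjusted p = 0.714), and the intron around it also overlapped with shSCR. The 1229 nt intron of Srsf5 had 27.0 and 34.9, and 27.5 and 28.4, all above shSCR (0.55 ± 0.16, adjusted p = 0.159). The 107 nt exon of Srsf7 had 24.3 and 17.2, and 21.9 and 15 (adjusted p = 0.296). The median PSI difference was 2.90 over the 11 exons and −1.72 over the 16 introns.

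Among the events that add no stop, the longer first exon of Srsf5 fell to a PSI of 31.7 and 31.1 with shCPSF3#1 and 37.4 and 35.3 with shCPSF3#2 (−1.76 ± 0.12, adjusted p = 0.00952), a call that held in all 12 fits without 1 library. The 907 nt intron of Srsf5 fell to 35.0 and 32.5, and 36.4 and 33.8 (−1.03 ± 0.12, adjusted p = 0.0277). This call was lost in 9 of 12 fits, and held without shSCR replicate 2 and without either shUL1#1 library (−1.22 to −0.84). The 187 nt exon of Srsf1 had 90.5 and 88.8, and 88.2 and 93.6, above both shSCR libraries and past the PSI rule (2.01 ± 0.34, adjusted p = 0.0524). The 129 nt form of the Tra2a exon rose to 17.6 and 14.8, and 15.6 and 13.7 (0.84 ± 0.12, adjusted p = 0.0418), a call lost in all 12 fits without 1 library. By the PSI rule, 9 member events differed, beside 0.428% of all events. The 3 of them that were nonsense-introducing were the called ones, all lower, beside 0.333% of exons and 0.288% of introns that were lower.

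The test over all covered events may have little power, which was tried only in simulated data. There, every event was given the same added spread, which need not hold in the deposited data, where the test called 2164 events for this comparison. In the simulated data for this comparison, 1% of 100 events changed by 2 units of log2 odds were recovered. When the fit was restricted to events with a mean of at least 5 reads for each form, a setting chosen after seeing the data, 96% of these were recovered and 15% of those changed by 1 unit, with 8 false calls of the 65513 simulated events that passed this minimum. In the deposited data, 64109 events of the knockdown dataset passed it, 94 of them in the members (102 in the overexpression dataset). Of these member events, 29 were called in shSCR against NI, 21 with the CPSF3 knockdown, 15 with the UL1 knockdown, and 4 in Empty against NI, where the shares of all events were 12.7%, 5.69%, 2.7%, and 1.42%. It called 13 of 26 nonsense-introducing events as higher with shSCR, 4 of 10 exons (12.6% of all exons tested) and 9 of 16 introns (9.98% of all introns). The calls added to the 9 were the 104 nt exon of Srsf2, which stayed under a PSI of 5 in every library, the 874 nt intron of Srsf7, and both introns of Srsf3. With the CPSF3 knockdown, it called 4 as lower, 1 exon (5.96% of all exons were lower) and 3 introns (3.31%), and the 368 nt intron of Srsf1 was the added call.

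hnRNP UL1, the product of Hnrnpul1, is an RNA-binding protein of the hnRNP family. With its knockdown, Tra2a was the single member called, beside 10.5% of all genes called in either direction and 3.15% called lower. Tra2a had 188.8 and 219.5 scaled CPM with shUL1#1 and 178.7 and 188.8 with shUL1#2, all below shSCR (−0.51 ± 0.12, adjusted p = 0.037). The call was lost in 9 of 12 fits, and held without either shCPSF3#2 library and without shUL1#1 replicate 2 (−0.56 to −0.45). Srsf6 had 369.8 and 428.7, and 321.0 and 357.5 (0.35 ± 0.16, adjusted p = 0.191). Srsf5 had 621.0 and 604.1, and 532.2 and 510.4, also all below shSCR (−0.26 ± 0.09, adjusted p = 0.117). The levels of the other 7 members overlapped with shSCR. Among them, Srsf11 differed between the shRNAs, with 350.3 and 358.4 for shUL1#1 above shSCR and 271.9 and 289.0 for shUL1#2 below it. The median was −0.09 over the members and 0.00 over all genes.

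None of the 27 nonsense-introducing events was called with the UL1 knockdown by limma over all events. Of the 27, 8 had an unadjusted p under 0.05, beside 50510 of all 374159 events, and 4 were called in the fit with at least 5 reads for each form. These were 1 exon higher (2.7% of all exons tested), 1 exon lower (3.14%), and 2 introns lower (0.946% of all introns). In all, 3 of 281 member events were called, beside 0.133% of all events. The PSI rule named 14 member events (0.368% of all events), of which 4 were nonsense-introducing. Of these, 2 exons were higher (0.223% of all exons), 1 exon lower (0.252%), and 1 intron lower (0.209% of all introns). The 207 nt exon of Srsf4 had a PSI of 34.2 and 24.5 with shUL1#1 and of 34.6 and 25.3 with shUL1#2, above the 16.8 and 15.4 of shSCR (adjusted p = 0.202). The 137 nt exon had 44.1 and 32.0, and 45.2 and 35.1, above the 21.3 and 21.7 of shSCR (adjusted p = 0.208, and 0.0468 with at least 5 reads for each form). Srsf4 encodes SRp75, and its 174 nt exon, which leaves the frame open, had 49.0 and 34.4, and 47.3 and 40.0, above 29.3 and 26.0 (adjusted p = 0.261). The 3 exons lie in the same 17336 nt intron.

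Events of Tra2a, Srsf1, and Srsf5 were among those with lower values with the UL1 knockdown. The 79 nt exon of Tra2a had a PSI of 20.8 and 20.5, and 23.3 and 26.5, below both shSCR libraries (−0.97 ± 0.17, adjusted p = 0.0946, and 0.025 with at least 5 reads for each form), and the intron had 16.1 and 17.4, and 15.4 and 18.4 (−0.94 ± 0.19, adjusted p = 0.115, and 0.0358 in the latter fit). The 196 nt intron of Srsf1 had 26.4 and 21.8, and 20.8 and 18.2 (−1.01 ± 0.19, adjusted p = 0.11, and 0.0231 with at least 5 reads for each form). At Srsf5, the longer first exon fell to 35.0 and 33.1, and 35.1 and 34.6 (−1.72 ± 0.12, adjusted p = 0.0195), and the 907 nt intron to 37.1 and 33.3, and 35.0 and 35.0 (−0.98 ± 0.12, adjusted p = 0.0461). The first of these calls was lost in 6 of 12 fits, those without an NI, shUL1#1, or shUL1#2 library (−1.94 to −1.5), and the second in 11 of 12, all but that without shSCR replicate 2 (−1.17 to −0.79).

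CPSF3 and UL1 knockdown were also compared with each other. In this direct comparison, limma called 0 of 10 members (4 genes, or 0.0424%, of all, with 1207 genes at an unadjusted p under 0.05) and 0 of 281 member events (0% of all). There were 22 member events at an unadjusted p under 0.05, beside 25004 of all 374159 events. voom also called 0 members, the fit with at least 5 reads for each form called 0 member events, and the PSI rule named none (0.0067% of all events). A p above the threshold does not show that the knockdowns acted alike. For Tra2a, the difference in expression between CPSF3 and UL1 knockdown was −0.03 ± 0.10 on the log2 scale. For the 79 nt exon of Tra2a it was −5.93 points of PSI (−0.56 ± 0.14 in log2 odds, adjusted p = 0.629), and for the longer first exon of Srsf5 −0.562 points.

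**Figure D5:**
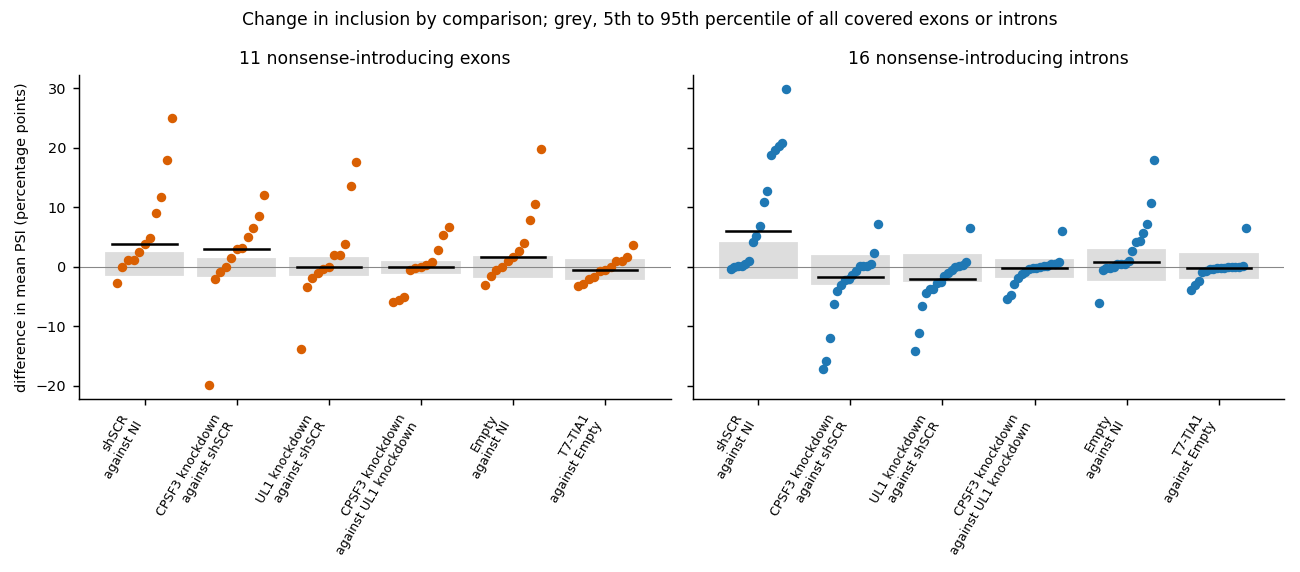
Difference in mean PSI (percentage points, y axis) for the 11 nonsense-introducing exons (left) and 16 introns (right) in each of 6 comparisons (x axis), in which each point is an event, the black bar is the median, and the grey box spans the 5th to 95th percentile of all covered exons or introns. In shSCR against NI, the medians were 3.83 for exons and 5.97 for introns, and the intron with the largest difference, in Srsf1, lay at 29.8, beyond the 95th percentile of 4.07 of all introns.

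In the overexpression dataset, the empty vector at day 12 was compared with its own day 0. Tra2a, Srsf7, and Tra2b were higher, 3 of 10 members, beside 46.5% of all genes called in either direction and 22.8% called higher. Tra2a had 188.8 and 173.3 scaled CPM in NI and 258.6 and 243.0 in Empty (0.47 ± 0.11, adjusted p = 0.0203), Srsf7 had 224.5 and 175.7 and then 302.6 and 261.0 (0.50 ± 0.15, adjusted p = 0.043), and Tra2b, the other transformer-2 protein, had 193.0 and 180.5 and then 241.7 and 226.5 (0.32 ± 0.10, adjusted p = 0.0427). All 3 calls were lost in the 4 fits without an Empty or T7-TIA1 library (adjusted p of up to 0.134, 0.227, and 0.223). The call on Tra2b was also lost with the replicate block (adjusted p = 0.0547 with limma). Srsf5 had 443.0 and 411.2 and then 615.5 and 511.6, just outside the threshold (0.39 ± 0.13, adjusted p = 0.0538). The other members had log2 fold changes of 0.06 to 0.23. The median was 0.20 over the members and 0.01 over all genes, and scaling to the same sum moved the latter to 0.19. With that scaling 6 members were called higher, beside 3143 of all 9472 genes. Srsf3 (0.42, adjusted p = 0.0409), Srsf5 (0.58, adjusted p = 0.0138), and Srsf6 (0.36, adjusted p = 0.0275) were the members added. One NI library of this dataset had a fibroblast sum of 47702 against 16827 in the other.

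No member event was called in Empty against NI by limma over all events, where 2 events of the whole table, or 0.000525%, were called. At an unadjusted p under 0.05 there were 55 of 289 member events, beside 68786 of all 380903 events. The PSI rule named 5 (0.679% of all events), 3 of them nonsense-introducing and all 3 higher (1 exon, beside 0.452% of all exons, and 2 introns, beside 0.354% of all introns). The 79 nt exon of Tra2a had a PSI of 7.93 and 9.79 in NI and of 36.4 and 20.7 in Empty (adjusted p = 0.172, and 0.0187 with at least 5 reads for each form). The intron around it had 9.86 and 7.67 and then 23.3 and 15.7 (adjusted p = 0.166), and the 1377 nt intron of Srsf7 had 28.5 and 23.2 and then 53.0 and 34.7 (adjusted p = 0.317). The remaining 2 were the forms of the first exon of Srsf5, whose longer form had 27.7 and 26.0 in NI and 46.7 and 41.5 in Empty (adjusted p = 0.133). The 196 nt intron of Srsf1 had 11.5 and 11.0 and then 21.4 and 12.4 and was not called. The 165 nt exon of Srsf6 was not called either, with 11.8 and 10.8 in Empty.

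T7-TIA1 was compared with Empty at day 12. TIA1 is an RNA-binding protein that promotes the use of weak 5′ splice sites followed by U-rich sequence. limma called 0 members among 10, and 0% of all genes, with 393 genes at an unadjusted p under 0.05 and 0 calls by voom. The log2 fold changes of the members lay between −0.12 (Srsf5) and 0.08 (Srsf11). limma also called 0 of 289 member events (0% of all), with 17 at an unadjusted p under 0.05, beside 21862 of all 380903 events. In the fit with at least 5 reads for each form there were 0 member calls (0.0561% of all). The PSI rule named 2 member events (0.342% of all), the forms of the first exon of Srsf5. The longer form had a PSI of 28.8 and 34.5 with T7-TIA1 and of 46.7 and 41.5 with Empty (−0.77 ± 0.18 in log2 odds, adjusted p = 0.708). The 79 nt exon of Tra2a had 34.3 and 26.0, overlapping with Empty. The median PSI difference over the 27 nonsense-introducing events was −0.2.

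The genes around the SR proteins were counted from lists of other SR-rich factors, kinases and importers of SR proteins, and NMD and exon junction complex factors. Of 13 listed kinases and importers, 5 rose with shSCR against NI and none fell, beside 22.5% of all genes called higher and 44.5% called in either direction. The median log2 fold change of the list was 0.00, as was that of all genes. Clk1 (1.42, adjusted p = 0.000354) and Clk4 (0.57, adjusted p = 0.00686), which phosphorylate SR proteins in the nucleus, were among them, as were Dyrk1b (1.64, adjusted p = 0.000293) and Clk2 (0.58, adjusted p = 0.0163). Clk1 was lower with the CPSF3 knockdown than with shSCR (−0.52, adjusted p = 0.0311), as the single call of the list, beside 26.1% of all genes called and 9.35% called lower. In Empty against NI, where 46.5% of all genes were called, Clk2 was higher (0.59, adjusted p = 0.0101) and Clk3 lower (−0.40, adjusted p = 0.0328) among 12 listed genes.

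Among 22 NMD and exon junction complex genes, 6 rose and 3 fell with shSCR against NI, beside the same 44.5% of all genes called, with a median of 0.15. The decapping enzyme gene Dcp2 (1.32, adjusted p = 0.00579) and Smg6, the endonuclease of NMD (0.69, adjusted p = 0.00128), were higher. Magohb, a core subunit of the exon junction complex, was lower (−1.65, adjusted p = 0.00062), as was Nbas (−0.68, adjusted p = 0.00522). In Empty against NI, where 46.5% of all genes were called, 5 rose and 3 fell, with Dcp2 at 1.14 (adjusted p = 0.00262) and Magohb at −0.84 (adjusted p = 0.0362). With the CPSF3 knockdown, where 26.1% of all genes were called, 1 rose and 3 fell, with the kinase gene Smg1 at −0.51 (adjusted p = 0.0274). Of the 14 listed SR-rich factors, 4 rose and 1 fell with shSCR, beside 44.5% of all genes called and 22.5% called higher, Srrm2, a scaffold of nuclear speckles, most (1.30, adjusted p = 0.00181) and Srsf9 down (−0.68, adjusted p = 0.0167). With the CPSF3 knockdown, Srrm1 fell (−0.73, adjusted p = 0.0294) and Son rose (0.52, adjusted p = 0.00813), in all 1 rise and 3 falls, and with the UL1 knockdown Son was the single call (0.48, adjusted p = 0.0206), beside 10.5% of all genes called. No gene of the 3 lists was called with T7-TIA1.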

How the data were processed

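PolyA RNA of 18 libraries was sequenced, 12 in the knockdown and 6 in the overexpression dataset, and groups were taken from the titles. The authors mapped reads to mm10 with STAR 2.7.1a and deposited 1 table per dataset of the signal of filtered genes, CPM from edgeR 3.16.5 relative to scaled library sizes (sums of 937556 to 1104160 per library). Filtered-out genes were not analysed here. The authors also deposited vast-tools PSI in percent for each event, with a text of coverage scores and read counts of both forms.

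From these, log2(scaled CPM + 1) was tested with limma 3.58.1 (trend), all groups of a dataset in 1 fit, each knockdown as the mean of its shRNAs. Events covered in every library of a dataset were tested with robust limma on log2((inclusion + 1)/(exclusion + 1) reads), weighted by counting variance plus 0.1. Calls had a Benjamini-Hochberg adjusted p under 0.05 over the whole table. The fits were tested on simulated data, in which all of 100 genes changed 2-fold and 49% of those changed 1.5-fold were recovered for CPSF3 knockdown against shSCR. The simulated libraries had no shift shared by replicate number, so these shares do not give the power for members with such a shift. Stop codons were found with GENCODE M21 transcripts. Full values were given for all 10 genes, for nonsense-introducing events with a mean PSI of at least 5 in some group, for at most 3 other called or PSI-rule events per gene, and for at most 4 genes of each other list by largest log2 fold change. Members, lists, and rules were chosen with earlier results of these data known. R 4.3.3 and Python 3.11.15 were used.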

Additional observations from a re-analysis of the deposited data

Results flagged for a closer look

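Day 12 against day 0 differed in direction between the datasets for the following values, in which every day 12 library moved one way in the knockdown dataset (shSCR) and the other way in the overexpression dataset (Empty). The differences between the datasets were not tested. In expression, the log2 fold change of Srsf3 was −0.48 with shSCR and 0.23 with Empty, a difference of −0.71, that of Srsf6 was −0.39 and 0.17, a difference of −0.57, and that of Tra2b was −0.32 and 0.32, a difference of −0.65. None of the shSCR values was called, and only that of Tra2b was called with Empty. The PSI of the 1229 nt intron of Srsf5 was higher by 12.7 points with shSCR and lower by 6.17 with Empty (−6.17), a difference of 18.9 points. An alternative 3′ splice site of Srsf6 that was not covered in all libraries had PSI differences of −16.0 and 16.0, a difference of −32.0.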

How the results depend on the processing

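Outside the fits that left out 1 library, 79 counts stayed within 1.5 times the reported count, and those that did not are given here. Members called in expression went from 2 to 5 (CPSF3 knockdown) with the replicate block, and from 2 to 0 there, from 1 to 0 (UL1), and from 3 to 0 (Empty against NI) with only the groups compared. Scaling to the same sum gave 0 for UL1, beside 836 of all 9435 genes, and 6 for Empty against NI, beside 4697 of all 9472. Member events called went to 14 (shSCR against NI), 5 (UL1), 1 (CPSF3 against UL1), and 1 (T7-TIA1) with unweighted PSI in percent, to 2 (CPSF3) and 0 (UL1) with no weights, to 5 (CPSF3) with 0.5 reads added, and to 0 for shSCR against NI, CPSF3, and UL1 with only the groups compared. With only the groups compared, no event of the whole table was called either. With at least 5 reads for each form there were 21 (CPSF3), 15 (UL1), and 4 (Empty). The causes were not tested, apart from the fewer libraries or events of these fits. By the PSI rule, 15 (CPSF3) and 8 (Empty) passed without a minimum gap, and 7 (UL1) and 0 (T7-TIA1) with a minimum difference of 15. Leaving out 1 library gave, in expression, 1 to 2 (shSCR), 0 to 3 (CPSF3), 0 to 1 (UL1), and 0 to 6 (Empty) called members. The extremes came without either NI library or shSCR replicate 2 (shSCR), shSCR replicate 2 (0, CPSF3), shCPSF3#2 replicate 2 (3, CPSF3), and NI replicate 1 (6, Empty), and the Empty calls were all lost without an Empty or T7-TIA1 library. In events it gave 10 to 27, 2 to 6, 0 to 6, and 0 to 0, and by the PSI rule 16 to 21, 9 to 14, 13 to 14, and 3 to 10, with 2 to 7 for T7-TIA1. The lowest event counts came without NI replicate 2 (10, shSCR) and without shCPSF3#1 replicate 1 or 2 or shCPSF3#2 replicate 1 (2, CPSF3), and those of UL1 were 0 without either NI library or any shUL1 library and 6 without shSCR replicate 2. By the PSI rule, 14 (CPSF3) came without shCPSF3#2 replicate 2, and 3 and 10 (Empty) without Empty replicate 1 and 2. The log2 fold change of Srsf7 with shSCR turned to 0.0160 with the same sum and lay between −0.46 and 0.23 without 1 library (0.23 without shSCR replicate 1), and that of Srsf11 with CPSF3 knockdown lay between −0.11 and 0.0166 (the latter without shCPSF3#2 replicate 1).

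Same-numbered libraries share only a number in the labels. Their deviations correlated with r of 0.67 to 0.95 among day 12 knockdown groups, −0.13 to 0.02 between NI and day 12, and 0.17 to 0.31 in the overexpression dataset. With the replicate block, called members numbered 3, 5, 1, 0, 2, and 0 and member events 35, 11, 3, 0, 0, and 0, in the order shSCR against NI, CPSF3, UL1, CPSF3 against UL1, Empty against NI, and T7-TIA1. Of all genes, the block called 5608, 4698, 2768, and 70 of 9435 and then 4392 and 0 of 9472, in that order. Of all events, it called 24935, 3134, 389, and 0 of 374159 and then 0 and 0 of 380903. The block added Srsf6 (−0.39, adjusted p = 0.0367) with shSCR and Srsf7 (−0.77, adjusted p = 0.0154), Srsf2 (−0.49, adjusted p = 0.0498), and Tra2b (−0.38, adjusted p = 0.0495) with CPSF3 knockdown, and lost Tra2b in Empty against NI (adjusted p = 0.0547). The block fits the same shift to NI and day 12 libraries, which the correlations between NI and day 12 in the knockdown dataset do not bear out.

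The planned edgeR and DESeq2 fits were not run, although every deposited value was a whole multiple of 1 step per library. Instead, voom on reads derived from these steps, chosen after seeing the data like the minimum of 5 reads for each form, gave 2, 2, 1, 0, 3, and 0 called members in the same order.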
